A study of Mus musculus with 4 samples.

Results

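The bone morphogenetic protein (BMP) pathway was examined through 10 genes linked to pulmonary hypertension: the type II receptor Bmpr2, the type I receptors Acvrl1, Bmpr1a and Bmpr1b, the co-receptor Eng, the ligands Bmp4 and Bmp6, the signal transducer Smad9 and the target genes Id1 and Id3. They were taken by symbol from the 32285 genes counted, and all 10 were present. Single-nucleus RNA-Seq had been done on the lungs of 2 WT mice (C57/BL6J) and 2 VEcad-TRF2DN-Tg mice (hereafter Tg), aged 8 to 9 weeks. In the Tg mice, the VE-cadherin promoter drives a dominant-negative form of the telomere-binding protein TRF2 in endothelial cells (ECs), as a model of EC senescence. Per the study's text, Tg mice were heterozygous, and mice were used at 8 to 9 weeks of age. Whether this age is that before or after hypoxia is not stated there. By the same text, mice of both genotypes had been kept in chronic hypoxia. There was therefore no normoxic group, and each comparison below is one of genotype within hypoxia or one of nuclear class.

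BMP ligands bind a complex of type II and type I receptors on the cell surface. The type I receptor then phosphorylates receptor Smads, which enter the nucleus with Smad4 and switch on target genes, of which the Id genes are the best known. In ECs of the lung, Bmpr2 works mainly with Acvrl1 (also called ALK1) and with endoglin (Eng), which presents circulating BMP9 and BMP10 to the receptor. Loss-of-function mutations of BMPR2 are the most common known genetic cause of heritable pulmonary arterial hypertension, and mutations of ACVRL1 and ENG cause hereditary hemorrhagic telangiectasia, in which pulmonary hypertension can also arise.

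Stretches of 5 promoters are printed, of genes on which results below turn. Bmpr2, Eng and Bmp6 were higher in vascular ECs than in the mean of the other classes, Smad9 was highest in mesothelial nuclei, and Id3 was called between genotypes. Capitals mark 2 motifs known to be bound by Smad proteins: GGCGCC, which reads the same on both strands, and CAGAC, which reads GTCTG on the other strand. Of Eng (chr2:32646345-32646594) and Smad9 (chr3:54755332-54755581), the 250 bases before the RefSeq start are given whole, and they lie in no exon of GENCODE M21 (build GRCm38.p6, plus strand).
Eng: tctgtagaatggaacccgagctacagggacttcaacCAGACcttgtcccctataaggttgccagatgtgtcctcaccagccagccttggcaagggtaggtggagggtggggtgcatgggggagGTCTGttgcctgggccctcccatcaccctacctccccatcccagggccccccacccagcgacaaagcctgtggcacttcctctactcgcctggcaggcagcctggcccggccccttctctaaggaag
Smad9: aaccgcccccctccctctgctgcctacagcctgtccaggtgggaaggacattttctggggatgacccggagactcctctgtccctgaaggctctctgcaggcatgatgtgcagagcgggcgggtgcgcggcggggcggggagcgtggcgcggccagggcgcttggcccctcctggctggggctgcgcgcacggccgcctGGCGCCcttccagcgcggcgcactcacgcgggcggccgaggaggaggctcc
In GENCODE M21 the same window of Bmpr2, Bmp6 and Id3 lies wholly in exon sequence, past the start of the gene there. Of these only the motif with 10 bases on either side is given, at chr1:59764164-59764189 for Bmpr2, chr13:38345587-38345611 for Bmp6, and chr4:136143645-136143669 and chr4:136143744-136143768 for Id3 (GRCm38.p6, plus strand).
Bmpr2: ccggcggccgGGCGCCgctgcctgcc
Bmp6: cgcacgtgtgCAGACtgcgagtgac
Id3, first match: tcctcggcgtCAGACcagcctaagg
Id3, other match: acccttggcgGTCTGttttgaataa
The windows of Bmpr2 and Smad9 each held 1 GGCGCC and no CAGAC, those of Eng and Id3 each held 2 CAGAC and no GGCGCC, and that of Bmp6 held 1 CAGAC and no GGCGCC. Among all 32851 RefSeq promoter windows of this length, 9.59% held GGCGCC and 42.2% held CAGAC. Of the windows not printed, that of Bmpr1a held 1 GGCGCC, those of 2 of the 3 Bmpr1b starts held 1 CAGAC each, and those of the remaining Bmpr1b start and of Bmp4 held neither. The matches describe the letters of these windows and are not binding sites. RefSeq windows were found for 8 of the 10 members, all but Acvrl1 and Id1.

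For each mouse, every barcode and its counts of unique molecular identifiers (UMIs, 1 per captured transcript) were available, before any selection of nuclei or removal of free RNA. In all, 125261739 and 146133943 UMIs were counted in WT 1 and WT 2, and 128645180 and 182014706 in Tg 1 and Tg 2. Of the 134745 barcodes with at least 1500 UMIs, 35.6% resembled droplets without a nucleus, 31.1% had no class, 2.9% carried markers of more than 1 lineage, and the 40963 nuclei that remained were given classes from marker genes, so that each class name below stands for nuclei like that cell type. The libraries stood apart here: only 340 barcodes of Tg 1 resembled empty droplets, against 15018, 23477 and 9120 in WT 1, WT 2 and Tg 2. Free RNA was measured in barcodes with 300 to 800 UMIs, called empty droplets below. With so few such larger barcodes in Tg 1, how well its empty droplets stand for the free RNA among its nuclei was not tested, which bears on its classes, its ratios to empty droplets and its subtracted values. Each pair of libraries shared between 176 and 475 of the barcodes with at least 1500 UMIs. The vascular ECs (general capillary, aerocyte, arterial, venous and those without a subclass) numbered 915 and 741 nuclei in WT 1 and WT 2, and 1813 and 1958 in Tg 1 and Tg 2. The 15 pan-endothelial markers summed to between 8765 and 10413 CPM (UMIs scaled to a common total in each class and mouse) in these nuclei, against 1098 to 1574 CPM in empty droplets. These markers had served to choose the nuclei, so the sums describe the class and do not test its name. Free RNA was estimated to make up 53.7% and 60.1% of the UMIs of these nuclei in WT 1 and WT 2, and 70.0% and 62.6% in Tg 1 and Tg 2. Estimated for each part of the class, it was between 45.7% (venous) and 69.8% (no subclass) in Tg 1. A share of the whole cannot exceed that of every part, so the estimates of Tg 1 are not exact. The subtracted values of vascular ECs rest on the 70.0%. Terf2, the gene of TRF2, was at 55.5 and 54.3 CPM in vascular ECs of WT 1 and WT 2 and at 46.1 and 52.9 CPM in Tg 1 and Tg 2. Whether reads of the transgene are counted as Terf2 is not given in the sources used here, so this level does not check the labels. Levels are CPM within a class and mouse. Reads on introns were counted, so longer genes gather more UMIs. In GENCODE M21 the members span from 1.16 kb (Id1) to 332 kb (Bmpr1b), and no level is compared between genes. In what follows, 4 values in a row are those of WT 1, WT 2, Tg 1 and Tg 2, in this order.

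Which nuclei carry the receptors of the pathway was asked first. Among the named classes, Bmpr2 and Acvrl1 were highest in vascular ECs, Bmpr1a in mesothelial and alveolar type 1 nuclei, and Bmpr1b in club secretory and mesothelial nuclei. Each class was set beside the empty droplets of the same mouse, and vascular ECs were compared with the mean of the other tested classes except lymphatic ECs in edgeR, with a term for each mouse. The 10 members and the other pathway genes had no part in making the classes. In that comparison 8 of the 10 members passed the threshold (Benjamini-Hochberg adjusted p under 0.05), 6 higher and 2 lower in vascular ECs. Of all 14520 genes tested, 15.5% were called higher and 11.8% lower.

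**Figure D1:**
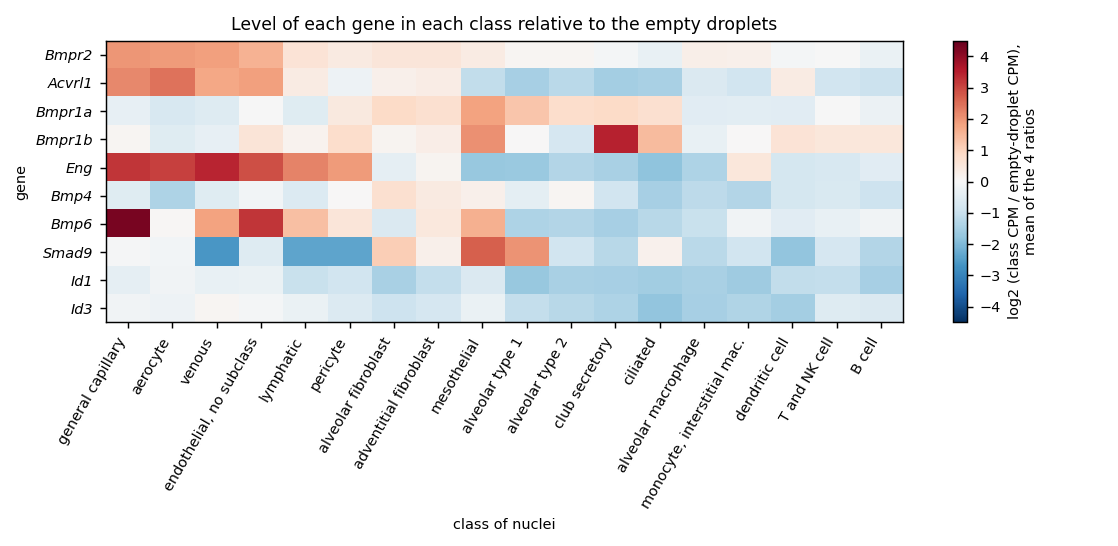
Level of each of the 10 genes (rows) in each of the 18 tested classes of nuclei (columns) relative to the empty droplets, as log2 of the mean over the 4 mice of the ratio of CPM values, with red above and blue below the empty droplets. Bmp6 in general capillary nuclei, Eng in the endothelial classes and Bmpr1b in club secretory nuclei stand out in red, while Id1 has no class above the empty droplets in all 4 mice.

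Bmpr2, the type II receptor whose loss underlies heritable disease, was at 1056, 954, 706 and 795 CPM in vascular ECs. In empty droplets it was at 371, 293, 160 and 215 CPM, so vascular ECs lay 2.85 to 4.41 times above them. Against the other classes, Bmpr2 was higher in vascular ECs by a log2 fold change of 1.67 ± 0.06 (SE, 4 mice, edgeR adjusted p = 6.38e-31). It exceeded the empty droplets in all 4 mice in 8 of 18 classes. Outside the vascular ECs these were lymphatic EC, alveolar fibroblast, adventitial fibroblast and mesothelial nuclei, with ratios from 1.04 to 2.20. At least 1 UMI of Bmpr2 was found in 88.5%, 82.2%, 75.2% and 81.3% of vascular EC nuclei (median 2532 UMIs per nucleus), and in 51.5%, 48.1%, 28.6% and 42.8% of T and NK nuclei (median 2287 UMIs), where the level did not exceed that of the empty droplets in every mouse. With every nucleus thinned to 1500 UMIs, the shares were 75.1%, 66.1%, 60.6% and 64.5% against 38.4%, 31.1%, 19.5% and 28.7%.

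Acvrl1, the type I receptor that answers to BMP9 and BMP10 in ECs, was at 146, 175, 179 and 170 CPM in vascular ECs and at 30.4, 35.8, 50.4 and 54.4 CPM in empty droplets. All 4 mice were above their empty droplets, by 3.12 to 4.87 times. The only classes above the empty droplets in all 4 mice were the 4 tested vascular EC classes. Against the other classes the log2 fold change was 2.70 ± 0.09 (SE, 4 mice, edgeR adjusted p = 6.52e-34). Lymphatic EC nuclei were at 31.2, 70.6, 59.9 and 51.1 CPM, which overlaps the range of the empty droplets.

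Bmpr1a (ALK3), a type I receptor of broad use, had the opposite distribution. Mesothelial nuclei were at 408, 415, 439 and 411 CPM and alveolar type 1 nuclei at 347, 301, 244 and 290 CPM, against 179, 157, 82.5 and 107 CPM in empty droplets. The 4 mesothelial values lay close together, in all 4 mice above those of the empty droplets. Vascular ECs were at 106, 101, 83.6 and 106 CPM and exceeded their empty droplets in 1 mouse of 4, by a ratio of 1.01. Bmpr1a was lower in vascular ECs than in the other classes (log2 fold change -0.76 ± 0.08, SE, 4 mice, edgeR adjusted p = 1.94e-12). Besides the mesothelial class, it was above the empty droplets in all 4 mice in both fibroblast classes and in all 4 epithelial classes, 7 classes in all.

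Bmpr1b (ALK6), a type I receptor better known from cartilage and ovary, reached its highest level in club secretory nuclei, at 1966, 2238, 2038 and 2239 CPM. Its empty droplets were at 471, 444, 91.2 and 178 CPM, so the club class lay 4.18 to 22.3 times above them. The profile of the club class came from 3, 13, 1 and 2 nuclei chosen by markers. Of these markers, Scgb1a1, Scgb3a2, Scgb3a1, Cyp2f2 and Cbr2 were not scored, being abundant in free RNA. The name of the class thus rests on few nuclei and on its other markers. Mesothelial nuclei held Bmpr1b at 957, 829, 755 and 764 CPM and ciliated nuclei at 490, 555, 414 and 666 CPM. These were the other classes above the empty droplets in all 4 mice. The barcodes that were given no class held Bmpr1b at 1026, 819, 837 and 789 CPM, so much of its signal lies outside the named classes. In vascular ECs the level was below the empty droplets in both WT mice and above them in both Tg mice (ratios 0.64, 0.60, 1.96 and 1.44), with values of 302, 265, 179 and 256 CPM. The log2 fold change against the other classes was -0.39 ± 0.12 (SE, 4 mice, edgeR adjusted p = 0.0139), and the call was lost without WT 2, Tg 1 or Tg 2 (adjusted p = 0.0884, 0.0876 and 0.0623), with only the marker-chosen nuclei (0.144) and with the empty-droplet profile subtracted (0.608).

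Eng (endoglin), the co-receptor of ECs, was at 198, 219, 207 and 198 CPM in vascular ECs and at 24.3, 17.4, 28.8 and 26.2 CPM in empty droplets. The values of the 4 mice lay within a narrow band, 7.20 to 12.6 times above the empty droplets. Against the other classes the log2 fold change was 3.84 ± 0.10 (SE, 4 mice, edgeR adjusted p = 6.76e-40). Lymphatic EC nuclei followed at 85.7, 124, 120 and 100.0 CPM and pericytes at 117, 54.8, 100.5 and 92.9 CPM, and all 8 of these values were above the empty droplets by at least 3.16 times. Eng was also above the empty droplets in all 4 mice in monocytes and interstitial macrophages, by 1.01 to 1.91 times on 8 to 19 UMIs per mouse.

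Of the ligands, Bmp6 was highest in ECs, and Bmp4 was at or below the free RNA in most classes. Bmp6, which is best known for its control of hepcidin and iron when released by liver ECs, was at 326, 445, 378 and 355 CPM in vascular ECs and at 37.8, 32.1, 21.5 and 22.6 CPM in empty droplets. The log2 fold change against the other classes was 4.27 ± 0.12 (SE, 4 mice, edgeR adjusted p = 1.30e-37). Outside the vascular ECs, Bmp6 was above the empty droplets in all 4 mice in mesothelial nuclei (189, 77.5, 50.8 and 50.5 CPM) and lymphatic EC nuclei (77.9, 37.0, 65.9 and 86.6 CPM, on 11 to 39 UMIs per mouse). Bmp4, a ligand made by lung mesenchyme in development, exceeded the empty droplets in all 4 mice in 1 of the 18 classes tested, the alveolar fibroblasts, at 77.0, 80.6, 75.0 and 57.8 CPM against 36.3, 49.3, 47.1 and 48.7 CPM. It was below the empty droplets in all 4 mice in 12 of 18 classes. The difference between vascular ECs and the other classes did not pass the test for Bmp4 (log2 fold change 0.11 ± 0.12, SE, 4 mice, edgeR adjusted p = 0.546).

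Smad9, the receptor Smad also called Smad8, was highest in mesothelial nuclei, at 62.4, 47.0, 60.3 and 47.9 CPM, and in alveolar type 1 nuclei, at 29.8, 40.5, 33.2 and 37.0 CPM. The empty droplets were at 6.66, 7.70, 10.0 and 11.8 CPM, so mesothelial nuclei lay 4.06 to 9.37 times and alveolar type 1 nuclei 3.14 to 5.26 times above them. Alveolar fibroblasts, by 1.06 to 3.39 times, were the other class above them in every mouse. In vascular ECs, 14, 18, 35 and 38 UMIs of Smad9 were counted, at 5.08, 6.93, 7.10 and 6.15 CPM. These values were below the empty droplets in every mouse, and the comparison with the other classes did not pass the test (log2 fold change -0.30 ± 0.23, SE, 4 mice, edgeR adjusted p = 0.380).

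The target genes Id1 and Id3 encode inhibitors of basic helix-loop-helix transcription factors. Neither stood above the free RNA in every mouse in any class: the number of classes above the empty droplets in all 4 mice was 0 for both, and Id1 was below them in all 4 mice in 16 of 18 classes and Id3 in 10. Vascular ECs held Id1 at 34.8, 35.8, 76.3 and 49.5 CPM, and their empty droplets were at 45.2, 44.4, 87.5 and 79.5 CPM. Id3 was at 16.7, 27.4, 102 and 64.9 CPM in vascular ECs and at 17.5, 22.8, 125 and 99.5 CPM in empty droplets. Both were nevertheless higher in vascular ECs than in the mean of the other classes, Id1 by 0.94 ± 0.11 and Id3 by 0.86 ± 0.11 on the log2 scale (SE, 4 mice, edgeR adjusted p = 1.27e-10 and 2.15e-09). Classes differed in their share of free RNA. It was estimated at 33.5%, 35.8%, 35.2% and 39.2% in alveolar type 1 nuclei, below the share in vascular ECs. In T and NK nuclei it was 67.5%, 63.7%, 59.6% and 65.3%. The part of free RNA in these differences was not tested. The calls of Id1 and Id3 both stood with the empty-droplet profile subtracted (edgeR adjusted p = 9.11e-07 and 9.91e-06). In that setting, sums below 0 were set to 0. This befell Id1 in alveolar type 1 and type 2 nuclei of every mouse and in vascular ECs of Tg 2. It befell Id3 in dendritic cell nuclei and in monocytes and interstitial macrophages of every mouse. The same held for Id3 in alveolar type 2 nuclei of all mice but WT 1, and in alveolar macrophages of all but WT 2. Both calls thus rest in part on values fixed by the subtraction. They cannot tell whether Id1 or Id3 is higher in vascular ECs. In vascular ECs, 23.1% of 14117 genes were above the empty droplets in all 4 mice, as were 4 of the 10 members: Bmpr2, Acvrl1, Eng and Bmp6. These 4 were also more than 2-fold above them in every mouse, as were 4.02% of all genes.

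Within the ECs, the ligand Bmp6 differed most between the tested subclasses among the members tested there. General capillary ECs express the receptor of apelin and serve as progenitors of the capillary bed, and aerocytes are the large, thin capillary ECs of the gas exchange surface. Bmp6 was at 479, 595, 488 and 517 CPM in general capillary nuclei, at 27.6, 38.1, 20.3 and 28.6 CPM in aerocytes and at 33.6, 86.3, 131 and 99.0 CPM in venous nuclei. The general capillary values were all above the venous ones, and the aerocytes lay at the level of the empty droplets. At least 1 UMI of Bmp6 was found in 48.7%, 62.8%, 54.2% and 56.2% of general capillary nuclei (median 2571 UMIs) and in 6.21%, 5.05%, 3.71% and 4.71% of T and NK nuclei (median 2287 UMIs). After thinning to 1500 UMIs the shares were 36.3%, 45.4%, 42.9% and 42.3% against 4.12%, 2.53%, 2.66% and 2.9%. Against the mean of the other 2 tested subclasses, Bmp6 was higher in general capillary nuclei (log2 fold change 3.30 ± 0.14, SE, 4 mice, edgeR adjusted p = 1.63e-20) and lower in aerocytes (-2.87 ± 0.26, adjusted p = 7.56e-12). The aerocytes numbered 70, 46, 85 and 104 nuclei. The 276, 251, 508 and 641 EC nuclei without a subclass were left out of this test. Their Bmp6 was 7.46, 9.14, 13.1 and 7.94 times that of the empty droplets.

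**Figure D2:**
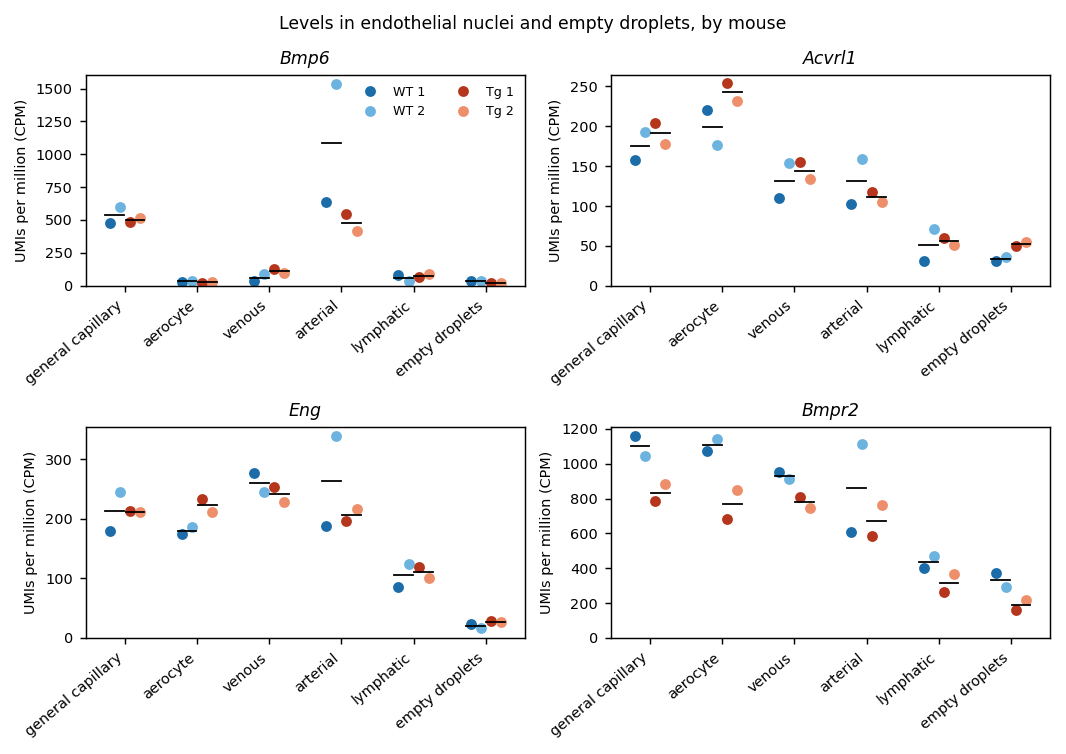
CPM of Bmp6, Acvrl1, Eng and Bmpr2 in 5 endothelial classes and the empty droplets, 1 point per mouse (WT 1 and WT 2 in blues, Tg 1 and Tg 2 in reds), with a bar at the mean of each genotype. Bmp6 is high in general capillary and arterial nuclei and near the empty droplets in aerocytes, and the arterial point of WT 2 rests on 9 nuclei.

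The receptors varied less among the subclasses. Acvrl1 was at 221, 176, 254 and 231 CPM in aerocytes, 158, 193, 204 and 178 CPM in general capillary nuclei and 110, 153, 155 and 134 CPM in venous nuclei. It was higher in aerocytes (log2 fold change 0.54 ± 0.13, SE, 4 mice, edgeR adjusted p = 0.00139) and lower in venous nuclei (-0.57 ± 0.12, adjusted p = 0.000587) than in the other 2, and both calls were lost with at least 3000 UMIs per nucleus (adjusted p = 0.171 and 0.246). Bmpr1b was called higher in general capillary nuclei (0.36 ± 0.12, adjusted p = 0.0426), a call that was lost without WT 1 or Tg 1 (adjusted p = 0.201 and 0.416) and with at least 3000 UMIs (0.253). Bmpr2 was at 1161, 1044, 787 and 882 CPM in general capillary nuclei, 1074, 1144, 685 and 851 CPM in aerocytes and 951, 911, 807 and 748 CPM in venous nuclei, and it passed the test in none of the 3 (adjusted p from 0.383 to 0.784). Eng, at 276, 245, 254 and 228 CPM in venous nuclei, did not pass either (lowest adjusted p = 0.0893). Of the 9 members tested, 2 were called in general capillary nuclei, 2 in aerocytes and 1 in venous nuclei, where 9.91%, 14.9% and 13.4% of 7609 genes were called.

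Arterial nuclei numbered 22, 9, 103 and 72 and were not part of this test. Their Bmp6 stood at 641, 1531, 544 and 413 CPM, on 75, 77, 213 and 149 UMIs. A fit that took them in, chosen after the data had been seen, called Bmp6 (log2 fold change 2.45 ± 0.18, SE, 4 mice, edgeR adjusted p = 2.18e-14), Bmp4 (1.72 ± 0.24, adjusted p = 5.30e-07) and Bmpr1b (0.91 ± 0.14, adjusted p = 7.05e-06) higher in arterial nuclei than in the other subclasses. It called Acvrl1 (-0.73 ± 0.16, adjusted p = 0.000695), Id1 (-0.79 ± 0.27, adjusted p = 0.0441) and Bmpr2 (-0.36 ± 0.11, adjusted p = 0.0190) lower there. Bmp4 was at 85.4, 159, 112 and 69.2 CPM in arterial nuclei, on 8 to 44 UMIs per mouse, and all 4 values were above those of the empty droplets. In the same fit, Bmp6 was lower in venous nuclei (-1.21 ± 0.24, adjusted p = 0.000160) and the calls of Acvrl1 in venous nuclei and of Bmpr1b in general capillary nuclei were lost (adjusted p = 0.198 and 0.961).

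The profile of each member over the 18 classes (mean log2(CPM + 1) of the 4 mice) was compared with those of 13809 genes. The classes share libraries, depth and free RNA, so the Pearson correlations are descriptions. Nearest to Bmpr2 were Tspan7 (r = 0.949), Gata2 (0.940) and Tmem100 (0.940). Tmem100, a small membrane protein known to lie downstream of ALK1 in ECs, was also among the 3 nearest to Acvrl1 (0.95), with Gm47644 (0.959) and Cep85l (0.952). Nearest to Eng were Arhgef15 (0.957), Hspa12b (0.955) and Arap3 (0.955), and nearest to Bmp6 were Sema3c (0.899), Glp1r (0.881) and Gbp7 (0.878). Sema3c was among the general capillary markers used to make the classes. Bmpr1a lay nearest to Neo1 (0.933), the gene of the BMP co-receptor partner neogenin, Gm47271 (0.927) and Cyp3a13 (0.875), and Bmpr1b to Ppp2r2b (0.983), Mgat3 (0.939) and Vtcn1 (0.937). Bmp4 lay nearest to Scarf2 (0.900), Echdc2 (0.873) and Rbms3 (0.861), and Smad9 to Plscr2 (0.821), Cys1 (0.812) and Gm12153 (0.805). Id1 lay nearest to Fendrr (0.931), Ddah1 (0.921) and 4931406P16Rik (0.903), and Id3 to Foxf1 (0.907), Cavin1 (0.885) and Ddah1 (0.882). Among the members themselves, Bmpr2 and Acvrl1 (0.926), Acvrl1 and Eng (0.901), Bmpr2 and Eng (0.875), and Id1 and Id3 (0.872) were most alike over the 18 classes.

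Whether the genes differed between genotypes was asked next, first in the free RNA, because it enters every droplet. In empty droplets, 4 of the 10 members were called: Id3, Id1 and Acvrl1 rose and Bmpr1b fell in Tg mice, where 25.6% of all 15180 genes tested were called. Id3 was at 17.5, 22.8, 125 and 99.5 CPM, with both Tg mice far above both WT mice and a log2 fold change of 2.75 ± 0.31 (SE, 2 against 2 mice, edgeR adjusted p = 0.0178). Id1 rose by 1.16 ± 0.25 (adjusted p = 0.0235) and Acvrl1 by 0.91 ± 0.23 (adjusted p = 0.0339), and Bmpr1b was lower by a log2 fold change of -1.58 ± 0.32 (adjusted p = 0.0220). In 5 members both Tg mice were above both WT mice, and in 4 both were below, as in 27.4% and 41.6% of all genes. Without Tg 1, no member and no gene was called in empty droplets by edgeR, although 3232 genes, 4 of them members, had an unadjusted p under 0.05. DESeq2 with all mice called 3 members, all but Acvrl1 (adjusted p = 0.0516). The call of Acvrl1 was also lost without Tg 2 (0.0869) and without WT 1 (0.109), and that of Id1 without Tg 2 (0.0542).

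The libraries of the 2 genotypes also differed in what their free RNA was made of. The 9 club secretory markers summed to 21414, 19710, 145722 and 53795 CPM in empty droplets and to 10162, 9884, 51869 and 20805 CPM in vascular ECs. The 11 alveolar type 2 markers summed to 6866, 8990, 22368 and 21527 CPM in empty droplets. Mitochondrial genes held 0.126%, 0.151%, 0.785% and 0.685% of the UMIs of empty droplets. These values moved with the genotype in the same libraries as Id3, and their part in the differences was not tested.

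In vascular ECs, the cells in which the VE-cadherin promoter is active, Id3 was the only member called. It was at 16.7, 27.4, 102 and 64.9 CPM, on 46, 71, 504 and 401 UMIs, with a log2 fold change of 1.94 ± 0.33 (SE, 2 against 2 mice, edgeR adjusted p = 0.0223). Both Tg mice were above both WT mice, yet all 4 values lay within 0.65 to 1.20 times those of their own empty droplets. DESeq2 called it as well (adjusted p = 2.86e-05). The call was lost without Tg 1 (1.54, adjusted p = 0.0510) and without Tg 2 (2.26, adjusted p = 0.0920). With the empty-droplet profile subtracted from each sum, the log2 fold change of Id3 was -0.26 ± 0.92 (adjusted p = 0.948). This value depends on the share of free RNA estimated for Tg 1, which was above that of every part of the class. At least 1 UMI of Id3 was found in 4.81%, 9.18%, 23.1% and 17.8% of vascular EC nuclei and in 1.94%, 7.24%, 14.6% and 12.9% of T and NK nuclei. After thinning to 1500 UMIs, the shares were 2.63%, 3.64%, 14.0% and 9.68% against 1.32%, 4.31%, 9.79% and 8.29%. Of all 14222 genes, 8.21% were called, and the share with both Tg mice above both WT mice was 33.6% and below was 29.5%, against 3 members above (Bmp4, Id1 and Id3) and 2 below (Bmpr2 and Bmpr1b).

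**Figure D3:**
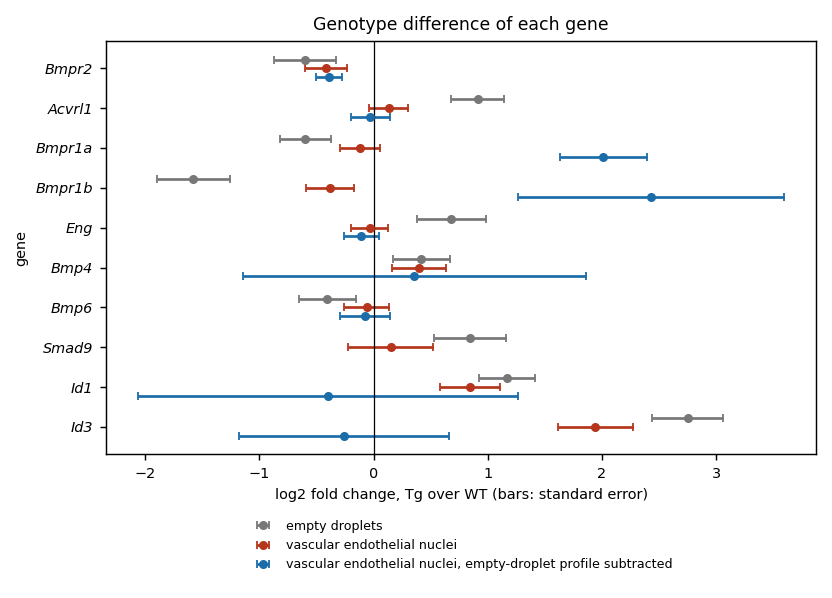
Log2 fold change of Tg over WT for each of the 10 genes in empty droplets (grey), in vascular EC nuclei (red) and in vascular EC nuclei after subtraction of the empty-droplet profile (blue), with bars of 1 standard error (2 against 2 mice, no blue point for Smad9). Id3 is at 2.75 in empty droplets, 1.94 in vascular ECs and -0.26 after subtraction.

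No other member passed the test in vascular ECs. Id1 was at 34.8, 35.8, 76.3 and 49.5 CPM, with 0.84 ± 0.26 on the log2 scale (edgeR adjusted p = 0.0917). It was called with no filter on low counts and with the replicate number as a block. Bmpr2 was lower in both Tg mice, at 1056, 954, 706 and 795 CPM, with -0.42 ± 0.19 (adjusted p = 0.181), and it was lower in their empty droplets too, with -0.60 ± 0.27 (adjusted p = 0.141). With the empty-droplet profile subtracted, Bmpr2 was at -0.39 ± 0.12 (adjusted p = 0.229), so its direction held while the call was not reached. The remaining values were 0.40 ± 0.24 for Bmp4 (adjusted p = 0.299), 0.15 ± 0.37 for Smad9 (0.813), 0.13 ± 0.17 for Acvrl1 (0.635), -0.03 ± 0.16 for Eng (0.906), -0.06 ± 0.20 for Bmp6 (0.860), -0.12 ± 0.17 for Bmpr1a (0.672) and -0.38 ± 0.21 for Bmpr1b (0.259). Of the 4 members more than 2-fold above the empty droplets in vascular ECs, Acvrl1, Eng and Bmp6 thus overlapped between genotypes, while both Tg mice were below both WT mice for Bmpr2. An exact permutation test of 2 against 2 mice cannot give a two-sided p below 0.333, so single values rest on the spread that edgeR shares among genes.

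Over the 18 classes tested one by one, Id3 was called higher in 14 of the 16 in which it passed the filter on low counts. Its log2 fold change was above 0 in all 16. It lay between 0.54 in lymphatic ECs, where it was not called, and 3.07 ± 0.54 in monocytes and interstitial macrophages (SE, 2 against 2 mice, edgeR adjusted p = 0.00913). In the latter class, a UMI of Id3 was found in 1.67%, 4.17%, 13.3% and 17.0% of 60, 96, 128 and 135 nuclei. The fold change there thus rests on few WT UMIs. In alveolar macrophages Id3 was at 4.71, 10.3, 43.8 and 29.2 CPM, in mesothelial nuclei at 11.6, 28.0, 85.4 and 62.7 CPM and in alveolar type 2 nuclei at 8.84, 9.82, 44.0 and 34.0 CPM. Both Tg mice were above both WT mice in all 18 classes, against 29% of all pairs of a gene and a class, but the classes share the mice and the free RNA. Without Tg 1 the calls of Id3 went from 14 to 2 (club secretory and dendritic cell nuclei), and without Tg 2 to 9. DESeq2 made 9, and there were 8 with at least 3000 UMIs per nucleus and 7 with only the marker-chosen nuclei. With the empty-droplet profile subtracted, Id3 was called in 0 of the 4 classes where it could be tested.

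**Figure D4:**
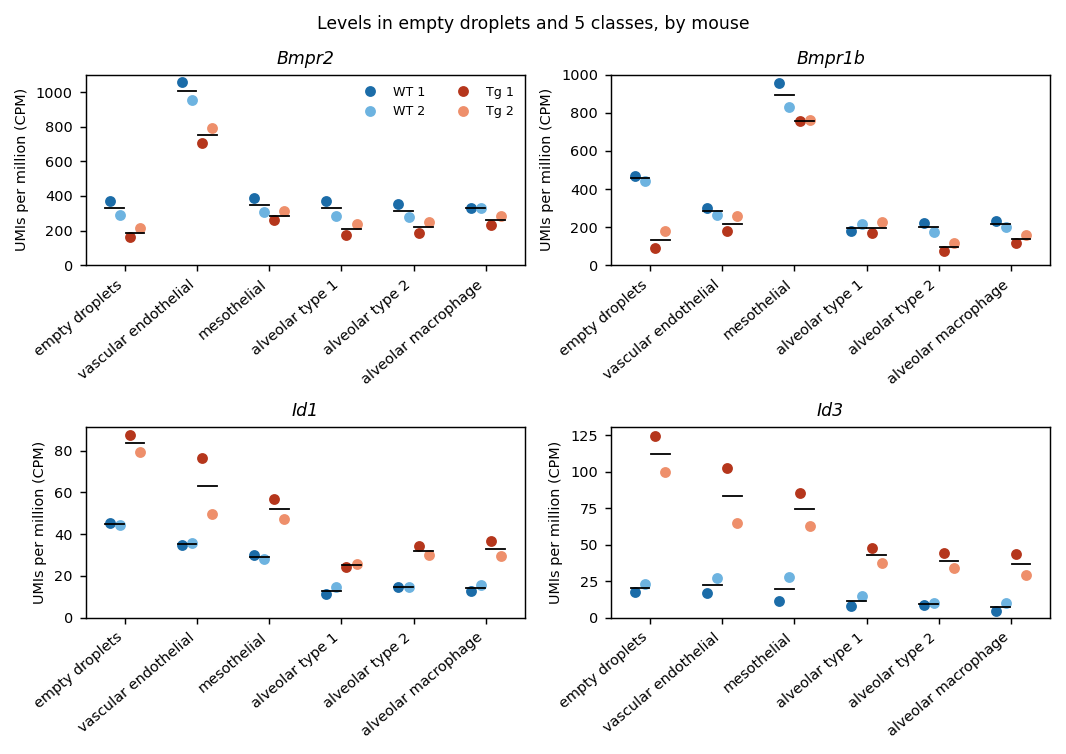
CPM of Bmpr2, Bmpr1b, Id1 and Id3 in the empty droplets and 5 classes of nuclei, 1 point per mouse (WT 1 and WT 2 in blues, Tg 1 and Tg 2 in reds), with a bar at the mean of each genotype. The Tg points of Id3 lie above the WT points in each class shown and in the empty droplets, where they are highest.

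Id1 was called in 2 of the 15 classes in which it was tested. It rose in alveolar type 2 nuclei (14.6, 14.6, 34.3 and 29.8 CPM, log2 fold change 1.16 ± 0.21, adjusted p = 0.0206) and alveolar macrophages (12.6, 15.8, 36.4 and 29.3 CPM, 1.17 ± 0.24, adjusted p = 0.0408). Both calls were lost without Tg 1 (adjusted p = 0.182 and 0.374). The call in alveolar macrophages was also lost without Tg 2 (0.115), with the replicate block (0.0826), with at least 3000 UMIs (0.0609) and with only the marker-chosen nuclei (0.0755). In neither class did Id1 pass the filter on low counts with the empty-droplet profile subtracted. In alveolar type 2 nuclei, Acvrl1 rose (0.84 ± 0.21, adjusted p = 0.0457) and Bmpr1b fell (224, 174, 72.4 and 116 CPM, -1.06 ± 0.24, adjusted p = 0.0364), in the directions seen in the empty droplets. The call of Acvrl1 was lost with DESeq2 (adjusted p = 0.110), with at least 3000 UMIs, with only the marker-chosen nuclei and without any 1 of the 4 mice (adjusted p from 0.0567 to 0.268). That of Bmpr1b was lost without Tg 1 (0.241) and with at least 3000 UMIs (0.0631), and with the empty-droplet profile subtracted its value turned to 4.01 (0.224). These calls and those of Id3 made 18 of 150 pairs of a member and a class, where 6.89% of all 179558 pairs of a gene and a class were called. Bmpr2 was called in no class with edgeR (lowest adjusted p = 0.0904, in alveolar type 1 nuclei). It was below 0 on the log2 scale in 17 of 18, and both Tg mice were below both WT mice in 13 of 18, against 28.6% of all pairs. The classes share the mice and the free RNA, in which Bmpr2 was also lower in both Tg mice. They are thus not separate observations, and the share of all genes below 0 in so many classes was not computed. With the empty-droplet profile subtracted, the log2 fold change of Bmpr2 ranged from -0.75 in club secretory nuclei to 1.19 in B cells and was called in no class (lowest adjusted p = 0.210). Without WT 2, Bmpr2 was called lower in 6 classes, and with no filter on low counts in 3. Eng, Bmp4, Bmp6, Bmpr1a and Smad9 were called in none by edgeR. Among these the largest differences were in Eng in alveolar fibroblasts (11.3, 9.25, 25.0 and 28.4 CPM, 1.42 ± 0.43, adjusted p = 0.0871) and in Bmp6 in mesothelial nuclei (-1.36 ± 0.39, adjusted p = 0.0832). DESeq2 called Bmp6 lower in mesothelial nuclei (adjusted p = 0.00686), as did edgeR with no filter, with the replicate block, with only the marker-chosen nuclei and without WT 2. Bmp6 was also called higher in venous nuclei without WT 2 or Tg 2, and lower in alveolar type 2 nuclei without WT 2.

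A test of the interaction of class and genotype asked whether the difference in vascular ECs was another than in the other classes. None of the 10 members was called with edgeR, and 2 of them, Acvrl1 and Eng, had an unadjusted p under 0.05, as had 537 of all 15687 genes. The closest was Acvrl1 (-0.54 ± 0.15, adjusted p = 0.897), and Id3 was at -0.32 ± 0.23 (adjusted p = 1). Of all genes, 2 were called (0.0127%), Tmem100 (-0.82 ± 0.16, adjusted p = 0.0353) and Ntrk2 (-1.16 ± 0.22, adjusted p = 0.0353), both with a lower genotype difference in vascular ECs. They are named here because the count was small, after their values had been seen, and Tmem100 is among the genes nearest to Bmpr2 and Acvrl1 over the classes.

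The other genes of the pathway were taken from a list of 51, grouped by role. Between vascular ECs and the other classes, 39 were tested, and 11 were higher and 5 lower in vascular ECs, where 15.5% of all genes were higher and 11.8% lower. The median log2 fold change was 0.08 over the list and -0.01 over all genes. Of 10 Smad proteins and their regulators, 4 were higher and none lower. They included the inhibitory Smads that damp the signal: Smad6 (2.63 ± 0.07, SE, 4 mice, edgeR adjusted p = 4.76e-38), at 193, 236, 177 and 175 CPM in vascular ECs, and Smad7 (1.41 ± 0.06, adjusted p = 3.64e-27). Of 6 target genes tested, 2 were higher, the endothelial transcription factor Gata2 (2.93 ± 0.11, adjusted p = 3.33e-30) and the Notch and BMP target Hey1 (1.54 ± 0.23, adjusted p = 2.35e-07), and 1 was lower. Of 7 receptors and co-receptors, 1 was higher and 2 lower, of 5 ligands tested 1 was higher and 1 lower, and of 11 antagonists and modulators 3 were higher and 1 lower, the last being Kcp (-1.60 ± 0.54, adjusted p = 0.0202), which binds BMPs outside the cell.

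Among the EC subclasses, 3 of the 5 antagonists and extracellular modulators tested were higher in venous nuclei and none lower. The metalloprotease gene Tll1, whose protein cleaves the BMP antagonist chordin, was at 481, 422, 256 and 309 CPM in venous nuclei and higher there than in the other 2 subclasses by 3.53 ± 0.15 on the log2 scale (SE, 4 mice, edgeR adjusted p = 1.83e-21). Fstl1, a secreted BMP-binding protein (2.12 ± 0.18, adjusted p = 2.11e-12), and Crim1, a membrane protein that tethers BMPs (1.5 ± 0.09, adjusted p = 2.55e-16), were higher as well, and all 3 were lower in aerocytes (-2.72, -1.05 and -1.59, adjusted p = 5.84e-11, 0.00278 and 6.16e-14). The co-receptor gene Tgfbr3 (1.00 ± 0.13, adjusted p = 4.28e-08) and the ubiquitin ligase gene Smurf2 (0.82 ± 0.10, adjusted p = 3.39e-08) were higher in aerocytes. Venous nuclei were also higher in the type I receptor gene Acvr1 (0.54 ± 0.14, adjusted p = 0.00515) and lower in Tgfbr3 (-0.66 ± 0.13, adjusted p = 0.000138). General capillary nuclei were higher in the receptor Smad gene Smad1 (0.39 ± 0.13, adjusted p = 0.0426). They were lower in Fstl1 (-1.07 ± 0.20, adjusted p = 0.000128), Tll1 (-0.81 ± 0.22, adjusted p = 0.0117), Smurf2 (-0.35 ± 0.09, adjusted p = 0.00871) and Tgfbr3 (-0.34 ± 0.10, adjusted p = 0.0271). In all, 1 of 25 list genes tested was higher and 4 lower in general capillary nuclei, 3 higher and 4 lower in aerocytes, and 4 higher and 2 lower in venous nuclei, where 9.91%, 14.9% and 13.4% of all genes were called in either direction.

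Between genotypes, 1 of 36 list genes tested in vascular ECs was called, against 8.21% of all genes. This was Nbl1, a secreted BMP antagonist of the DAN family, at 12.3, 21.6, 46.1 and 56.5 CPM (1.61 ± 0.28, SE, 2 against 2 mice, edgeR adjusted p = 0.0241), with empty droplets at 19.97, 33.7, 86.2 and 121 CPM. The call was lost without Tg 2 (1.48, adjusted p = 0.148), and Nbl1 did not pass the filter on low counts with the empty-droplet profile subtracted. The median log2 fold change was -0.10 over the list and 0.03 over all genes. In empty droplets, 5 of 41 were higher and 8 lower in Tg mice, where 25.6% of all genes were called in either direction. The largest were Gdf2, the gene of BMP9 (2.81 ± 0.60, adjusted p = 0.0240), Chrd (2.17 ± 0.55, adjusted p = 0.0346), Nbl1 (2.16 ± 0.30, adjusted p = 0.0178), Chrdl1 (1.75 ± 0.35, adjusted p = 0.0214) and, lower, Tll1 (-1.82 ± 0.24, adjusted p = 0.0178). The interaction test called none of the 41 list genes tested.

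In the single classes, the most list genes were called in alveolar type 2 nuclei, 3 higher and 1 lower of 37 tested. Of all 14826 genes tested in that class, 1415 were called higher and 362 lower. Nbl1 was called higher in 8 classes, by log2 fold changes from 1.12 ± 0.24 in alveolar type 1 nuclei (edgeR adjusted p = 0.0391) to 2.47 ± 0.64 in aerocytes (adjusted p = 0.0275). Fstl1 was higher in alveolar type 1 (1.14 ± 0.27, adjusted p = 0.0480) and alveolar type 2 nuclei (1.31 ± 0.21, adjusted p = 0.0162), and Chrdl1, a BMP antagonist, in alveolar type 2 nuclei (1.38 ± 0.34, adjusted p = 0.0472). Lemd3, whose product binds receptor Smads at the inner nuclear membrane, was lower in alveolar type 1 (-0.82 ± 0.19, adjusted p = 0.0475) and alveolar type 2 nuclei (-0.64 ± 0.14, adjusted p = 0.0351). Tll1 was lower in mesothelial nuclei (-1.19 ± 0.25, adjusted p = 0.0377) and alveolar macrophages (-1.34 ± 0.24, adjusted p = 0.0285), and the ligand gene Bmp5 in venous nuclei (-1.17 ± 0.34, adjusted p = 0.0497). How these calls of list genes fared under the alternative settings is not given here. Over all pairs of a gene and a class, most calls were lost without Tg 1 and with the empty-droplet profile subtracted. Nbl1, Chrdl1 and Tll1 were called in the same directions in the empty droplets.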

How the data were processed

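The UMI counts that the authors deposited are whole numbers by gene and barcode, with no normalization and no barcode removed. Per the submitters' processing notes they were made with Cell Ranger 6.1.1 and mm10, and the study's methods state that reads on introns were counted. The filters and the free-RNA correction of the study are not part of these counts. Total counts per mouse stand in the report, and intervals would cover counting error only.

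The 10 members, the list of 51 other pathway genes and the markers were chosen with earlier results of these data known. Nuclei (at least 1500 UMIs) were first chosen by 23 marker lists (Poisson p under 1e-06, at least 3 markers detected), leaving out 10 markers that are abundant in free RNA. Every barcode was then given the class whose profile over 3000 genes it resembled most, if the log-likelihood exceeded that of the empty droplets (300 to 800 UMIs) by 10 and its own markers were in excess (p under 0.01). Barcodes with markers of more than 1 lineage were left out as doublets. UMIs were summed per class and mouse where every mouse had at least 10 nuclei, which left out arterial, smooth muscle and cardiac muscle nuclei. Nuclei of a mouse are not replicates, and the 2 samples of a genotype are 2 mice per the study's text. The p-values between genotypes therefore measure the spread between so few mice. The class, subclass and interaction tests hold a term for each mouse. Their p-values rest on the scatter of class sums within mice, and class sums of 1 mouse share its library. edgeR's quasi-likelihood test (4.0.16, R 4.3.3, limma 3.58.1) used TMM, filterByExpr with a minimum of 10 UMIs and Benjamini-Hochberg adjustment over all genes, with a threshold of 0.05, and the script was tested on simulated data. Alternatives were DESeq2 (1.42.0), leaving out the filter, a replicate block, leaving out a mouse at a time, at least 3000 UMIs, doublets kept, only the marker-chosen nuclei, the empty-droplet profile subtracted in the estimated share of free RNA, and empty droplets of 100 to 300 UMIs. The fit that took in arterial nuclei was added after the data had been seen. All members were named, and of the other pathway genes those called, at most 5 per comparison by size of change. Python 3.11.15 was used with NumPy 2.4.6, SciPy 1.17.1 and pandas 2.3.3, and figures were drawn with Matplotlib 3.10.9.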

Additional observations from a re-analysis of the deposited data

Results flagged for a closer look

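Among the classes in which a member passed the filter on low counts, Bmpr1a, Bmpr1b, Eng, Bmp4 and Bmp6 had both Tg mice above both WT mice in one class and below them in another. Of all pairs of a gene and a class, 29% showed the first order and 28.6% the other, and how many genes showed both over the classes was not computed. Having both orders is therefore not read as particular to these members. Smad9 was below in 2 classes that passed the filter and above in 6 that did not, and is left out here. Of the 10 pairs of a member and a class given below, 1 passed its own test (Bmpr1b in alveolar type 2 nuclei, edgeR adjusted p = 0.0364), and the other 9 had an adjusted p from 0.0832 to 0.818. The differences between the 2 classes were not tested, and the classes named were those with the largest change in each direction. Bmpr1a was higher in Tg mice in lymphatic ECs and lower in alveolar macrophages, a difference of 1.21 in log2 fold change. Bmpr1b was higher in dendritic cells and lower in alveolar type 2 nuclei, a difference of 1.44. Eng was higher in alveolar fibroblasts and lower in monocytes and interstitial macrophages, a difference of 1.66. Bmp4 was higher in pericytes and lower in alveolar fibroblasts, a difference of 1.55. Bmp6 was higher in venous ECs and lower in mesothelial nuclei, a difference of 2.55.

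The 41917 barcodes that were given no class entered no comparison. The WT and Tg values did not overlap there for Bmpr2, Acvrl1, Smad9, Id1 and Id3, and the share of all genes of which this holds was not computed. In the named classes, both Tg mice were above both WT mice in 29% of all pairs of a gene and a class. They were below in 28.6%. No excess among the members can therefore be read from these barcodes. Bmpr2 was lower in Tg mice, with a log2 ratio of the genotype means of -0.46, and the other 4 were higher. The log2 ratio of the genotype means was 1.94 for Id3, 0.77 for Id1, 0.64 for Smad9 and 0.51 for Acvrl1, and these were not tested.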

How the results depend on the processing

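The comparison of vascular ECs with other classes called 7 or 8 of the 10 members under every alternative run, with Bmpr1b the only call lost, while its count over all genes went from 3964 to 2552 with the empty-droplet profile subtracted. The calls between genotypes moved more. In vascular ECs, the 1 member called became 2 with no filter on low counts and with the replicate number as a block, 0 with the profile subtracted (2 had an unadjusted p under 0.05) and 0 to 2 with a mouse left out, the second member being Id1. Over all genes, the 1168 calls there became 3124 with no filter, 2190 with the block, 760 with at least 3000 UMIs, 0 with the profile subtracted (1334 had an unadjusted p under 0.05) and 0 to 3341 with a mouse left out (0 without Tg 2, 306 without Tg 1 and 3341 without WT 2). No filter shifted the median of all genes there to 0.14 on the log2 scale. In empty droplets, a mouse left out gave 0 to 4 members against 4 and 0 to 4802 genes against 3883 (0 of each without Tg 1, 2 members and 814 genes without Tg 2), and barcodes of 100 to 300 UMIs gave 0 members, none being testable, and 70 of 226 genes. For pairs of a gene and a class, the 18 member calls became 28 with no filter, 10 with at least 3000 UMIs, 1 with the profile subtracted (Bmpr1b in lymphatic ECs) and 2 to 27 with a mouse left out (2 without Tg 1). The 12375 calls over all pairs became 26521, 7803 and 86 under the first 3 of these, 7332 with only the marker-chosen nuclei and 3161 to 23926 with a mouse left out (3161 without Tg 1, 23926 without WT 2). The interaction test called 1 member in place of 0 with the profile subtracted (Bmpr1a, 1.55, adjusted p = 0.0358, where the median of all genes was -0.16), and over all genes 25 in place of 2, 0 with the marker-chosen nuclei (622 had an unadjusted p under 0.05) and 0 to 5 with a mouse left out. The 5 member calls among EC subclasses became 2 with at least 3000 UMIs and 13 with arterial nuclei included. Subtracting the profile reversed the sign of called values in vascular ECs (Id3, -0.26), general capillary nuclei (Id3, -0.090), alveolar type 1 nuclei (Id3, -1.11) and alveolar type 2 nuclei (Bmpr1b, 4.01), none of them called after it. The cause of these changes was not tested.

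The replicate numbers are no pairing in the labels: same-numbered mice deviated together with r = 0.142 in vascular ECs and 0.126 in empty droplets, with 2 pairs only. The block also gave 22 member calls and 18091 calls over pairs of a gene and a class, and 4 members and 4685 genes in empty droplets. The subclass test with only the marker-chosen nuclei was not run, because fewer than 3 subclasses had 10 nuclei in every mouse. Smad9 in vascular ECs rests on 14 to 38 UMIs per mouse.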
